A study of Mus musculus with 6 samples.

Results

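The interferon regulatory factors (IRFs) are a family of transcription factors with a shared DNA-binding domain at the amino end. The 8 members described here, Irf1, Irf2, Irf3, Irf4, Irf5, Irf7, Irf8 and Irf9, were taken by gene symbol from a table of 14535 gene rows, and all 8 passed the filter on low counts. The table holds RNA-seq counts of type 2 conventional dendritic cells (cDC2s), antigen-presenting cells, from the spleens of C57BL/6 mice. Of 6 libraries, 3 were wild type (WT). The other 3 were IRF4-deficient (also written as without IRF4), which the series' design text gives as CD11c-Cre Irf4fl/fl. In such mice Cre recombinase, driven by the promoter of the CD11c gene Itgax, removes the part of Irf4 between loxP sites in CD11c-expressing cells. The labels give no age, no sorting gate and no group that carries Cre alone, so effects of the Cre transgene or the loxP allele and of the loss of Irf4 cannot be told apart. They also do not say that replicates came from separate mice, so the spread behind each p-value is that of the libraries and may be technical. Values listed for a group run in the order of replicates 1, 2 and 3.

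IRFs bind DNA repeats built around GAAA. IRF3 and IRF7 are held in the cytoplasm until kinases downstream of nucleic acid sensors phosphorylate them, after which they switch on type I interferon genes, and IRF5 is activated below Toll-like receptors and drives inflammatory cytokine genes. IRF9 is the DNA-binding subunit of ISGF3, the complex of STAT proteins and IRF9 that carries the signal of the interferon receptor to interferon-stimulated genes. IRF1 is an interferon-induced activator, and IRF2 competes with it for the same sites. IRF4 and IRF8 bind DNA weakly alone and act with partners such as PU.1 or BATF. In dendritic cells IRF8 is required for the type 1 lineage (cDC1) and IRF4 is the member most tied to cDC2s.

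All 8 members had a promoter entry in RefSeq (GRCm38.p6), in 11 windows of 250 bases before an annotated start. The windows below are those of the targeted gene, of the member that rose, and of the pair IRF1 and IRF2, since they show how the members differ in the letters that interferon-activated factors read. Both strands were searched for 4 motifs. The core of the interferon-stimulated response element (ISRE) was taken as GAAA and GAAA with any 2 bases between them, and the ETS-IRF composite element (EICE) as GGAA and GAAA with any 2 bases between. The gamma-activated site of STAT dimers (GAS) was TTC and GAA with any 3 bases between, and the NF-kB type site GGG and TTTCC with any 2 bases between. Matches are in capitals, and ISRE and EICE matches may overlap each other.

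Irf4, chr13:30748983-30749232, plus strand: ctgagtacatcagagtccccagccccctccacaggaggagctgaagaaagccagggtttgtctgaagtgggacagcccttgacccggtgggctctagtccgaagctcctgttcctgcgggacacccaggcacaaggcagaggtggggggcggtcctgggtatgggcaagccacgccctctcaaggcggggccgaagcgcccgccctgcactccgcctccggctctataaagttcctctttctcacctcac

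Irf8, chr8:120736108-120736357, plus strand: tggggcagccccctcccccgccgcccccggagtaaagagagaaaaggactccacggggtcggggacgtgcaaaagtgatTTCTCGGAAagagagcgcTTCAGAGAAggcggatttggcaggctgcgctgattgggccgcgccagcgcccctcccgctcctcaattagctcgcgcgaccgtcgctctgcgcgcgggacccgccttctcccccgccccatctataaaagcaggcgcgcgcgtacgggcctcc

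Irf1, chr11:53769764-53770013, plus strand: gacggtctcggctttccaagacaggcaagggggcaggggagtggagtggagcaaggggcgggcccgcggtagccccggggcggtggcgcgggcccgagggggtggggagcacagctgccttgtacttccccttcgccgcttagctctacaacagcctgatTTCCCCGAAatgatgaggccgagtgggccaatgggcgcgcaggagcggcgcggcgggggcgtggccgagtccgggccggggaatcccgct

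Irf2, chr8:46739495-46739744, plus strand: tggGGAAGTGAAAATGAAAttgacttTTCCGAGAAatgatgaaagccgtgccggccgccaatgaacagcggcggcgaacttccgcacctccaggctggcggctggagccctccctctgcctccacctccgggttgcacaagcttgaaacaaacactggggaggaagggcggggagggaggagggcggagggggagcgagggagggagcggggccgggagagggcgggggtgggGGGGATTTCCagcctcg

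The Irf8 window held 2 GAS matches, at 171 to 163 and at 153 to 145 bases before the start, and the Irf1 window held 1, at 90 to 82. In the Irf2 window an EICE match (247 to 238) ran into an ISRE match (241 to 232), followed by a GAS match (224 to 216) and, close to the start, an NF-kB type match (17 to 8). A GAS match was thus present for 3 of 8 members. Among all 27025 genes with such a window, 8.13% held a GAS match, 3.46% an ISRE match, 2.68% an EICE match and 1.65% an NF-kB type match. The windows of Irf3, Irf4, Irf5, Irf7 and Irf9, and the second windows of Irf1 and Irf8, held none of these letters. A match describes letters only and is not a measured binding site. Sites that depart from these patterns were not searched for, so a window without a match may still hold one.

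The libraries held 7421605 to 11459920 counts, and 357 to 3254 counts per member, so counting error alone was 1.95 to 5.03% of a member's mean while the spread between replicates (coefficient of variation) was 4.66 to 19.8%. The first principal component (56.8% of the variance) separated the genotypes. IRF4-deficient replicate 3 stood apart from the other libraries on the second (14%), and the fit was repeated without it and without each other library in turn. Of 14 markers of conventional dendritic cells and cDC2s all had counts, with mean Itgax of 1700 CPM without IRF4 and 1390 CPM in WT and mean Sirpa of 981 and 909 CPM (CPM, counts relative to library size, are scaled here with TMM factors), while Clec10a and Mgl2 stayed under 6 CPM. Of these markers 4 were called higher and 5 lower, beside 9.87% and 10.5% of all tested genes. The higher ones were Itgam (617 CPM in WT, 1870 without IRF4), Klf4, Itgax and Notch2, and the lower ones Cd4 (555 to 131 CPM), Cd209a (318 to 129), Zbtb46 (80.9 to 42.3), Flt3 (413 to 250) and H2-Ab1 (6160 to 5180). In 4 lists of other myeloid cells the summed level differed between the genotypes, as given beside the members below.

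In WT cDC2s every member was transcribed, and per kb of merged exon Irf4 was among several at a like level. In CPM not scaled for length Irf4 was highest, with a mean of 310.9 against 192.7 for Irf9, the next member. Whether Irf4 stood alone at the top thus depended on the length used. Levels of different genes are compared per kb of exon, merged over the coding transcripts of GENCODE M21. On this scale Irf5 stood at 65.1, 71.7 and 68.9 CPM per kb in the WT libraries, Irf4 at 59.5, 60.3 and 70.4, and Irf9 at 63.0, 58.5 and 58.0. Irf1 (45.2, 60.7 and 57.9) and Irf2 (53.3, 54.3 and 49.0) followed. From Irf5 down to Irf2, each member's range overlapped that of the next, so their order is not fixed by these libraries. Irf7 came next with 41.8, 37.4 and 28.6 CPM per kb, below every value of Irf2, and Irf3 with 32.7, 30.5 and 25.2. Those ranges overlapped, although Irf7 was above Irf3 within each of the 3 libraries. Irf8 was lowest in all 3 WT libraries, at 15.9, 11.6 and 14.2 CPM per kb, with no overlap with Irf3. The order at the top moved with the length used: with the longest coding sequence Irf4 had rank 1 and Irf5 rank 5, and with the longest transcript Irf1 had rank 1. Irf8 kept rank 8 under each of the 7 alternatives of length, scaling and left-out library.

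**Figure D1:**
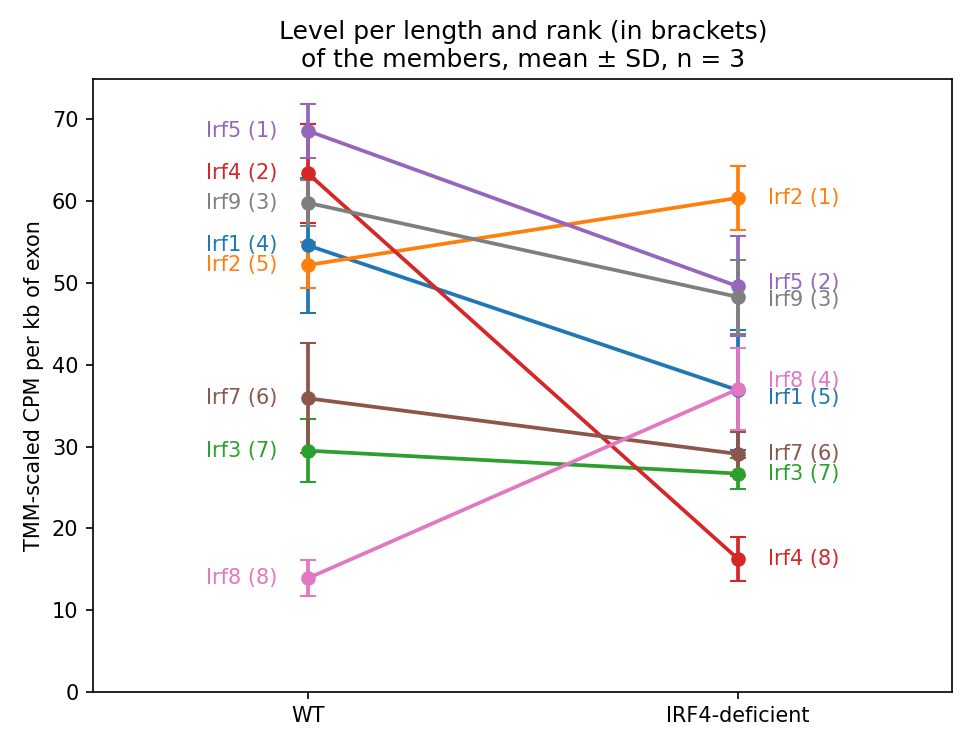
Level of each IRF member in CPM per kb of exon (y axis) in WT and IRF4-deficient cDC2s (x axis), as mean ± SD of 3 libraries, with the rank in the family in brackets. Irf8 moves from rank 8 to rank 4, Irf4 from rank 2 to rank 8, and Irf2 from rank 5 to rank 1. These ranks hold for this length, and with exons of all transcripts the IRF4-deficient ranks of Irf8, Irf4 and Irf2 are 7, 8 and 4.

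Irf4 (ENSMUSG00000021356.10, GRCm38 chromosome 13, 30749226 to 30766976, plus strand, 9 exons) is the targeted gene, so its change is the check of the labels and not a finding about the family. It had 987, 528 and 754 counts in the deficient libraries and 2110, 3254 and 2526 in the WT libraries. In CPM these were 90.84, 65.25 and 83.95 against 291.8, 295.8 and 345.0. The groups lay far apart, and every library matched its label. The fit left 25.8% of the WT level (95% interval 21.7 to 30.6%), a log2 fold change of -1.95 with an SE of 0.12 (edgeR adjusted p = 1.45e-09). Per kb Irf4 became the lowest member in each IRF4-deficient library, at 18.5, 13.3 and 17.1 CPM per kb. By its mean it was lowest also with the longest transcript and with exons of all transcripts, although with the latter it had rank 6 in replicate 1, and with the longest coding sequence it had rank 6. The counts cover the whole gene and the labels do not name the deleted exons, so how much of this remainder is transcript without the deleted part cannot be told. In bulk RNA, fewer cells with the transcript and less of it per cell cannot be told apart either.

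Irf8 was the 1 member that rose. Irf8 (ENSMUSG00000041515.10, chromosome 8, 120736358 to 120756694, plus strand) measured 107.4, 139.5 and 133.9 CPM without IRF4, against 54.49, 39.73 and 48.76 CPM in WT. All IRF4-deficient values were above all WT values, and IRF4-deficient replicate 1 was the lowest of its group. The rise was 2.67-fold (95% interval 2.19 to 3.25), a log2 fold change of 1.42 with an SE of 0.14 (edgeR adjusted p = 3.13e-07). It stayed between 1.29 and 1.53 on the log2 scale over all 15 alternative fits. GENCODE places a longer gene model, Gm20388, over Irf8 on the same strand, with 20337 bases shared, and it has no row of its own in the table.

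Cell types other than cDC2s also transcribe Irf8, and their markers are given here for that reason. Of 10 cDC1 markers 6 were called higher and 2 lower. Over all tested genes 9.87% were called higher and 10.5% lower, the background for each marker list here. Xcr1 was called higher, at 20.8, 28.9 and 35.0 CPM without IRF4 against 15.5, 10.8 and 22.5 in WT. So was Clec9a, at 61.6, 94.1 and 89.9 against 40.2, 55.6 and 47.4. The lower ones were Wdfy4 and Snx22 (mean 12.5 CPM without IRF4, 28.1 in WT). Cd8a (4.36 and 6.68 CPM) and Itgae (5.47 and 5.19 CPM) were not called. The summed level of the 10 markers was 1220 to 1460 CPM in IRF4-deficient and 1940 to 2060 CPM in WT libraries, a sum led by Wdfy4. Of 8 tested plasmacytoid dendritic cell markers (9 in the list) 4 were called higher and 1 lower, with sums of 538 to 637 and 378 to 425 CPM. These sums were led by Runx2, which was called higher (mean 367 CPM without IRF4, 180 in WT). Siglech was called higher too, at 6.35 to 8.77 and 1.27 to 4.78 CPM, and Ccr9 was the lower one. Tcf4 (mean 127 CPM without IRF4, 126 in WT) was not called. Of 8 tested monocyte markers (9 in the list) 5 were called higher and 0 lower, with sums of 2200 to 2860 and 846 to 1220 CPM. These sums were led by Lyz2 (mean 897 CPM without IRF4, 402 in WT) and Csf1r (705 and 326 CPM), both called higher. Ly6c2 (2.92 and 1.54 CPM), Nr4a1 (166 and 119 CPM) and Ace (346 and 64.6 CPM) were not called. F13a1 had too few counts to be tested. No marker of these lists was at 0 in all libraries. The part of such cells in the Irf8 level was not tested.

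Within each library the balance of IRF8 and IRF4 transcripts turned over. The CPM of Irf8 divided by that of Irf4 was 0.187, 0.134 and 0.141 in WT but 1.18, 2.14 and 1.60 without IRF4. Per kb of exon the ratio was 0.192 to 0.267 in WT and 1.69 to 3.05 in IRF4-deficient libraries, so on this length Irf8 exceeded Irf4 in each of the latter. This was so with the longest transcript and the longest coding sequence too, but with exons of all transcripts the ratio was 0.822, 1.49 and 1.11, above 1 in 2 of 3 libraries. Both terms contribute: on the log2 scale the ratio moved by 3.38, against 1.42 for Irf8 alone. In WT cells Irf4 held 16.8 ± 1.84% and Irf8 3.68 ± 0.617% of the summed per-kb level of the 8 members, and in IRF4-deficient cells 5.36 ± 0.825% and 12.2 ± 1.71% (SD, n = 3 each).

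Irf1 fell and Irf2 did not. Irf1 (ENSMUSG00000018899.16, chromosome 11, 53770014 to 53778374, plus strand) measured 156.3, 121.7 and 106.8 CPM without IRF4, against 157.1, 210.9 and 200.9 CPM in WT. The groups did not overlap, but IRF4-deficient replicate 1 and WT replicate 1 were nearly equal. The log2 fold change was -0.56 with an SE of 0.14, or 67.7% of the WT level (edgeR adjusted p = 0.00878), and the adjusted p was highest, at 0.046, without IRF4-deficient replicate 2. Irf1 was the most variable member within the IRF4-deficient group (coefficient of variation 19.8%). Markers of red pulp macrophages, which clear old red cells in the spleen, varied in the same libraries. Their sum over 12 genes was 1770, 2490 and 3210 CPM without IRF4 and 1370, 1600 and 1240 CPM in WT. Of the 12, 6 were called higher and 1 lower, beside 9.87% and 10.5% of all tested genes. The lower one was Emr1 (mean 196 CPM without IRF4, 298 in WT). Spic, Hmox1, C1qc, Axl and Cd163 were not called. None of the 12 markers was at 0 in all libraries, and their part in the Irf1 level was not tested. Without IRF4-deficient replicate 3, where that marker sum was highest, the log2 fold change of Irf1 was -0.45 (edgeR adjusted p = 0.0264). Without IRF4-deficient replicate 1, where the sum was lowest of that group, it was -0.73 (edgeR adjusted p = 0.000437). Irf1 shares 907 bases with a gene model on the opposite strand, Gm17334, that has no row of its own.

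Irf2 (ENSMUSG00000031627.9, chromosome 8, 46739732 to 46847458, plus strand) measured 166.8, 179.3 and 157.8 CPM without IRF4, against 148.1, 151.1 and 136.2 CPM in WT. The groups did not overlap, with the IRF4-deficient libraries slightly higher, but the change did not pass the threshold (log2 fold change 0.21, SE 0.09, 95% interval 0.01 to 0.41, edgeR adjusted p = 0.134). Nor did it pass in any of the 15 alternative fits, where the adjusted p was 0.0725 to 0.369. The ratio of Irf1 to Irf2 CPM was 1.06, 1.40 and 1.48 in WT but 0.937, 0.679 and 0.677 without IRF4. In CPM, not scaled for length, it was thus above 1 in each WT library and below 1 in each IRF4-deficient library. Per kb of exon Irf1 was above Irf2 in only 2 of 3 WT libraries, with 45.2 against 53.3 CPM per kb in WT replicate 1. Irf2 was the top member per kb in all 3 IRF4-deficient libraries, at 56.7 to 64.5 CPM per kb. This rank depends on the length: with exons of all transcripts Irf2 had rank 4 and Irf5 rank 1, and with the longest transcript Irf2 had rank 2 in replicates 1 and 3. Irf2 shares 1723, 877 and 433 bases with the gene models Gm45479, Gm45481 and Gm31172. These lie on the opposite strand and have no rows of their own.

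Among the members activated below nucleic acid sensors and Toll-like receptors, Irf5 fell, while Irf7 and Irf3 were not called. Irf5 (ENSMUSG00000029771.12, chromosome 6, 29526625 to 29541871, plus strand) measured 120.9, 133.6 and 154.3 CPM without IRF4 against 178.7, 196.8 and 189.0 CPM in WT. Every IRF4-deficient library was below every WT library. The log2 fold change was -0.47 with an SE of 0.10, or 72.4% of the WT level (edgeR adjusted p = 0.00251, and 0.000297 to 0.0208 over the alternative fits). Irf5 overlaps Tnpo3 by 1045 bases on the opposite strand, and without a stated strand setting reads there cannot be assigned.

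Irf7 (ENSMUSG00000025498.15, chromosome 7, 141262706 to 141266481, minus strand), the member that amplifies type I interferon production, measured 68.75, 64.88 and 77.72 CPM without IRF4. In WT it measured 101.0, 90.46 and 69.11 CPM. WT replicate 3 lay within the IRF4-deficient range, and the difference was not called (log2 fold change -0.30, SE 0.14, edgeR adjusted p = 0.131). Without WT replicate 3 it was called, with a log2 fold change of -0.44 (adjusted p = 0.0301). Across the 15 alternatives its adjusted p ran up to 0.455. Irf7 shares 45 bases with Phrf1 on the opposite strand. Irf3 (ENSMUSG00000003184.15, chromosome 7, 44997648 to 45002848, plus strand) stood at 64.33, 66.98 and 74.04 CPM against 84.08, 78.27 and 64.74 CPM in WT, with overlapping groups. Its log2 fold change of -0.15 had a 95% interval of -0.41 to 0.12 (edgeR adjusted p = 0.467), so a fall to 75.3% or a rise to 108% of the WT level lies within it. Irf3 shares 1065 bases with Bcl2l12 on the opposite strand.

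Irf9 (ENSMUSG00000002325.15, chromosome 14, 55603571 to 55610030, plus strand), the ISGF3 subunit, was lower by the smallest step among the called members. It measured 167.4, 139.3 and 160.2 CPM without IRF4, against 203.0, 188.4 and 186.7 CPM in WT. The groups did not overlap, and the spread within WT was 4.66% of the mean. The log2 fold change was -0.31 with an SE of 0.10, or 80.8% of the WT level (edgeR adjusted p = 0.0288). The call was lost when IRF4-deficient replicate 2 or any 1 of the WT replicates was left out, with adjusted p of 0.151, 0.103, 0.0706 and 0.0524, while the log2 fold change stayed between -0.36 and -0.23 over all 15 alternatives. Irf9 shares 123 bases with Rnf31 on the same strand.

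**Figure D2:**
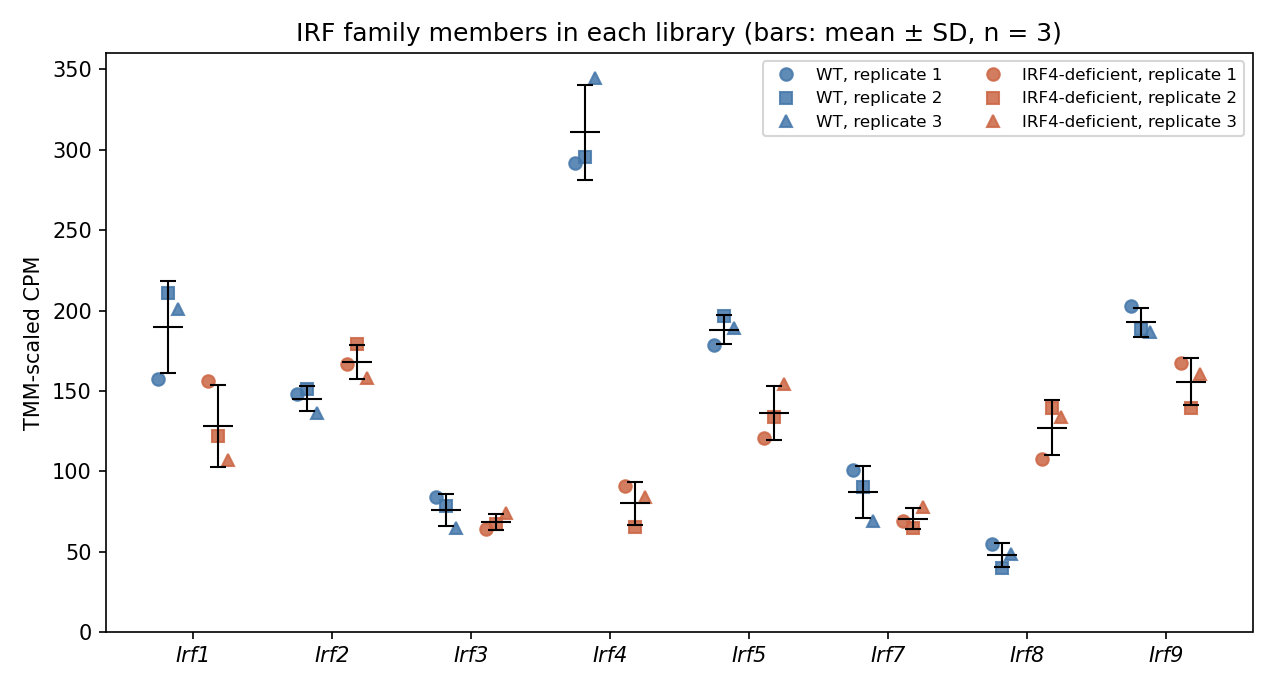
TMM-scaled CPM (y axis) of each IRF member (x axis) in 3 WT and 3 IRF4-deficient libraries; points are libraries and bars are mean ± SD. The groups stand far apart for Irf4 (65.25 to 90.84 against 291.8 to 345.0 CPM) and Irf8 (107.4 to 139.5 against 39.73 to 54.49 CPM), touch for Irf1 and overlap for Irf3 and Irf7.

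Across the family 1 member was called higher and 4 lower, Irf4 included, against a background of 20.4% of all 11934 tested genes called, 9.87% higher and 10.5% lower. Setting the targeted gene aside leaves 1 member higher and 3 lower of 7. Only Irf4 and Irf8 were both called and changed at least 2-fold, as were 7.38% of tested genes. The groups did not overlap for 6 of 8 members, which was so for 35.6% of tested genes. With so few members chosen by name, these shares are a description. The summed CPM of the 8 members was 942.7, 910.6 and 948.8 without IRF4 and 1218, 1251 and 1240 in WT. Without Irf4 the sum of the other 7 was 851.9, 845.3 and 864.8 against 926.4, 955.7 and 895.5 CPM. The rise of Irf8 was therefore smaller in CPM than the falls of the other members together, and the family total was lower in every IRF4-deficient library with or without Irf4.

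**Figure D3:**
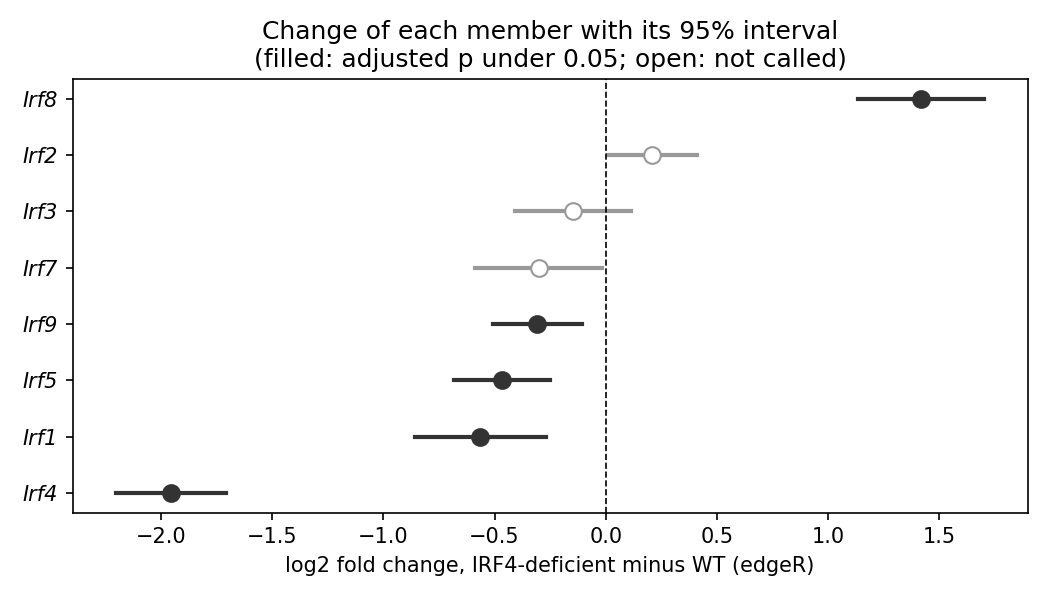
Log2 fold change of each IRF member in IRF4-deficient against WT libraries (x axis) with its 95% interval from edgeR; filled points passed an adjusted p of 0.05 and open points did not. Irf8 lies at 1.42 and Irf4 at -1.95, with the other 6 members between -0.56 and 0.21.

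The genes around the IRFs were counted in 6 lists, which were chosen with earlier results of these data known and carry no test of their own. Over all tested genes the median log2 fold change was 0.003. In the list of interferon receptors and ISGF3 signalling 1 of 11 genes was called higher and 6 lower (63.6% called, against 20.4% of all tested genes), with a median of -0.33. Stat2, whose product binds IRF9 in ISGF3, fell 1.67-fold (210.1 ± 13.4 against 352.0 ± 9.73 CPM in WT, SD, n = 3 each). The receptor-associated kinase gene Tyk2 fell 1.70-fold. Usp18, which damps signalling at the type I interferon receptor, fell 3.24-fold (edgeR adjusted p = 2.05e-08). Both receptor chains Ifnar1 and Ifnar2 were among the lower genes. Ifngr1, a chain of the interferon gamma receptor, was the gene called higher, from 553.2 ± 28.2 to 711.5 ± 30.1 CPM. The kinase genes Jak1 (377.2 CPM without IRF4 and 349.8 in WT) and Jak2 (906.4 and 1050 CPM) were not called, but Jak2 was called lower without WT replicate 1 (log2 fold change -0.31, edgeR adjusted p = 0.0162).

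Sensors, adaptors and kinases that lead to IRF3, IRF5 and IRF7 went both ways, 5 of 23 higher and 5 lower (43.5% called), with a median log2 fold change of 0.07. Tlr3, the endosomal sensor of double-stranded RNA, rose 1.82-fold, and the same gene is among the cDC1 markers called higher above. The single-stranded RNA sensor gene Tlr7 fell 1.86-fold (97.25 ± 17.7 against 181.1 ± 10.9 CPM). Unc93b1, which carries these receptors to endosomes, fell from 581.2 to 386.9 CPM and the cytosolic sensor gene Ifih1 1.38-fold. Among adaptors Ticam2 rose from 109.7 to 164.7 CPM. The DNA sensor cGAS, listed under its older symbol E330016A19Rik, rose from 67.9 ± 4.72 to 104.4 ± 13.9 CPM. The DNA sensor gene Tlr9 (281.4 CPM without IRF4, 280.0 in WT) and the kinase gene Irak1 (223.4 and 190.7 CPM) were not called, but Irak1 was called higher without IRF4-deficient replicate 2 (log2 fold change 0.32, edgeR adjusted p = 0.0368).

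Of 18 DNA-binding partners and IRF2-binding proteins 2 were called higher and 2 lower, with a median log2 fold change of -0.02. At 22.2% called, this list was near the background of 20.4%, so the genes below are single values and not a result about the list. Irf2bp2, a corepressor named for its binding to IRF2, rose 1.51-fold from 624.1 ± 31.1 to 940.6 ± 56.7 CPM, and Ikzf1, the Ikaros gene, 1.45-fold. Batf3, a bZIP partner of IRF4 and IRF8, fell 2.46-fold. The repressor gene Bcl6 fell 1.47-fold (edgeR adjusted p = 0.0103), and was not called without IRF4-deficient replicate 2 (adjusted p = 0.0702). The PU.1 gene, under its older symbol Sfpi1, measured 398.1 ± 29.5 CPM without IRF4 and 343.6 ± 46.4 CPM in WT, a difference outside the threshold (edgeR adjusted p = 0.135). Leaving out WT replicate 1 brought it inside (adjusted p = 0.02). Jun was not called either, with a log2 fold change of 0.10 and an SE of 0.55. Without WT replicate 3 its log2 fold change was -0.30 and was called (edgeR adjusted p = 0.0472).

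Genes that IRFs and ISGF3 act on were lower more often than higher. Of 30 interferon-induced genes driven through ISREs 19 were called lower and 1 higher, with a median log2 fold change of -0.66, beside the background of 10.5% called lower. Oasl2 fell 2.91-fold, Herc6 2.07-fold and Zbp1, a sensor of Z-form nucleic acid, 2.49-fold, while Oas3 rose 1.54-fold. Trim25 (255.1 CPM without IRF4, 251.4 in WT) and Eif2ak2 (118.7 and 140.3 CPM) were not called. Eif2ak2 was called lower without IRF4-deficient replicate 3 (log2 fold change -0.39, edgeR adjusted p = 0.033). Of 12 genes known to depend on IRF1, the MHC class I list, 10 were called lower and 0 higher, with a median of -0.49. This list and the 10 lower genes include Il15, a cytokine gene that is not part of the class I pathway. Nlrc5, the class I transactivator, fell 2.11-fold and the peptide transporter genes Tap1 and Tap2 1.57-fold and 1.67-fold, while Tapbp (143.8 and 165.0 CPM) and B2m (7780 and 7170 CPM) were not called. Without IRF4-deficient replicate 3, 20 ISRE genes and 9 genes of the MHC class I list were called lower. Without IRF4-deficient replicate 1 these numbers were 17 and 8. The monocyte and red pulp macrophage marker sums given above were higher in the IRF4-deficient libraries, and their part in these lists was not tested.

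Of 8 inflammatory cytokine genes associated with IRF5 5 were tested, with a median log2 fold change of -1.02. Of these 1 was called lower (Il1b, from 173.8 ± 1.20 to 104.5 ± 8.40 CPM) and 0 higher. That share, 1 of 5, was near the background of 20.4%. Tnf stood just outside the threshold, with a log2 fold change of -1.26 and an SE of 0.35 (edgeR adjusted p = 0.0507). Il6, Il12a and Il23a had 24, 15 and 6 counts in the 3 IRF4-deficient libraries together and 15, 4 and 9 in the WT libraries, too few to be tested.

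**Figure D4:**
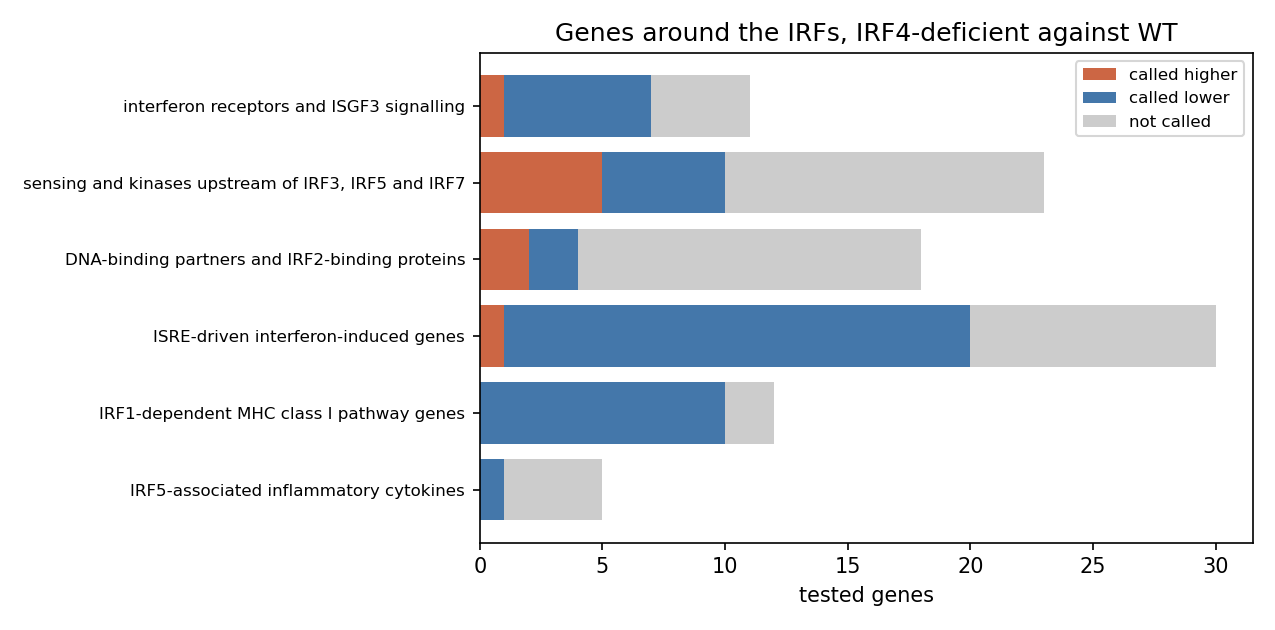
Number of tested genes (x axis) called higher, called lower or not called in IRF4-deficient against WT libraries for 6 lists of genes around the IRFs (y axis). Lower calls lead in the ISRE list (19 of 30) and the MHC class I list (10 of 12), while the sensing list has 5 in each direction. The MHC class I list includes the cytokine gene Il15, which was called lower.

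Profiles over the 6 libraries were also compared with those of 6705 genes of at least 20 CPM on average, as the root mean square difference of log2 CPM after centring each gene on its WT mean. The 4 profiles nearest to Irf4 were those of Spire1 (difference 0.0933), Gpr124 (0.115), 1300002K09Rik (0.144) and Ankrd33b (0.156), each with about the same fall, from -2.07 to -2.01 on the log2 scale. Nearest to Irf8 were the flagellin receptor gene Tlr5 (0.133), the arrestin gene Arrb1 (0.146), the interferon-induced gene Ifitm2 (0.156) and the cytokine receptor gene Lifr (0.174), with rises of 1.22 to 1.38. No other member was near either gene: the closest to Irf4 was Irf1, at a difference of 1.01, and the closest to Irf8 was Irf2, at 0.868. These genes were picked for their likeness, so the values describe it and test nothing.

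Marker sums of other cell types were lower than those above, but several of their markers had no row. These were Tnfrsf17 (plasma cells), Trbc1 (T cells), Elane, Mpo and Ly6g (neutrophils), and Hba-a1, Hba-a2, Hbb-bt and Hbb-b1 (erythroid cells). Of 8 B cell markers Cd79b was called higher, and Ms4a1 and Blk lower, beside 9.87% and 10.5% of all tested genes. The part of B cells in the Irf4 and Irf8 levels was not tested. Summed marker levels in IRF4-deficient and WT libraries were 104 to 140 and 82.1 to 149 CPM for B cells, which also use IRF4 and IRF8, and 34.4 to 46.3 and 36.0 to 60.3 CPM for plasma cells. They were 31.7 to 38.1 and 30.4 to 40.7 CPM for T cells, and 17.3 to 47.5 and 28.7 to 67.3 CPM for erythroid cells. For NK cells the sums were 2.39 to 6.06 and 5.18 to 6.91 CPM, and for neutrophils 1.11 to 1.67 and 2.46 to 12.1 CPM. In these lists the groups overlapped except for neutrophils, where WT was higher at under 13 CPM.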

How the data were processed

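RNA-seq of 3 IRF4-deficient and 3 WT cDC2 samples was deposited by the authors as 1 table of raw counts per gene symbol, whole numbers that had not been normalized. STAR, HTSeq, DESeq2 and the build mm10 are named in the submitters' processing notes; for the annotation, strand setting and row filter nothing was given in those sources. WT columns were matched to titles through the source names. Genes were filtered with filterByExpr, scaled by TMM and tested with edgeR 4.0.16 (glmQLFit and glmQLFTest, robust, R 4.3.3). A call is a Benjamini-Hochberg adjusted p under 0.05 over all 11934 tested genes. SEs come from the quasi-likelihood F, and intervals are at the 95% level. Replicates differed beyond counting noise (chi-square per degree of freedom 7.66 to 15.9), so each counted as 1 sample.

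Members and lists were chosen with earlier results of these data known. No p is given for a sum or ratio over members. Some rows of the table are not reported here. Of each list the 3 called genes with the smallest p per direction, and up to 2 uncalled genes of at least 100 CPM, were named. Ifnar1, Ifnar2, Il15, Tnf and the untested cytokine genes were named after their values were seen, as were the marker genes. Genes listed under other symbols were matched through RefSeq synonyms. Locations and lengths come from GENCODE M21 (GRCm38), which matched all 8 members. Profiles used log2(CPM + 0.5).

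Alternatives were DESeq2 1.42.0, limma-voom (limma 3.58.1), DESeq2 and upper-quartile scaling, other filters (none, or 5 CPM in 3 libraries), no robust shrinkage, removal of Rn45s and Malat1, the replicate number as a block, other gene lengths, and leaving out each library. The length over all annotated transcripts, and all other lengths for the IRF4-deficient ranks and ratio, were added after seeing the data. On simulated data with 200 changed genes, 34 of 67 changed 1.5-fold, 46 of 67 changed 2-fold and 63 of 66 changed 4-fold were recovered among 11798 tested genes. Of 150 calls there, 7 were false. The changed genes were drawn from all levels and were far fewer than those called in the real data. These shares are therefore not the power for the members.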

Additional observations from a re-analysis of the deposited data

How the results depend on the processing

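Over 15 alternative fits 1779 to 2513 genes were called, and 1779 to 2431 with 1 library left out. Of the 8 members, 4 or 5 were called in each, with Irf4, Irf8, Irf1 and Irf5 called in all 15. Only Irf9 lost its call, without IRF4-deficient replicate 2 (log2 fold change -0.23) or WT replicates 1, 2 or 3 (-0.27, -0.33 and -0.33), and only Irf7 gained one, without WT replicate 3. Jun ran from -0.30 without WT replicate 3, where it reversed and was called, to 0.43 without WT replicate 1. For the inflammatory cytokine list the number called was 1 as reported, 2 with DESeq2, upper-quartile factors, limma-voom and no robust shrinkage, and 1 to 3 with 1 library left out. The total called in each of the other 5 lists stayed within 1.5 times, at its widest 3 to 6 against 4 for the DNA-binding partners. By direction, ISRE genes called higher went from 1 to 3 without WT replicate 1, and partners called lower from 2 to 1 without IRF4-deficient replicate 2. Libraries with the same number in their titles did not deviate together (correlations of -0.00479, 0.0512 and -0.0106). With 3 libraries per group this cannot exclude a pairing, and the WT count columns carry other numbers than the titles. With the replicate block 2267 genes and 5 members were called, and the log2 Irf8 to Irf4 ratio moved by 3.38 as before. Ranks in WT depended on the length. With the longest transcript Irf1, Irf5, Irf4 and Irf9 had ranks 1, 2, 3 and 4. With the longest coding sequence Irf4, Irf1, Irf2, Irf9 and Irf5 had ranks 1, 2, 3, 4 and 5. With exons of all transcripts, retained introns included, Irf1, Irf9, Irf7, Irf3 and Irf2 had ranks 3, 4, 5, 6 and 7. With 1 WT library left out Irf1 had rank 3 to 5, Irf2 4 to 5, Irf4 2 to 3 and Irf9 2 to 4. Irf8 had rank 8 in all of these. Each member had at least 357 counts per library, while 3 of 8 cytokine genes had too few to be tested.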
